A study of Danaus plexippus with 32 samples.

Results

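A set of 38 genes of the monarch butterfly (*Danaus plexippus*) brain is described here, whose RNA level differed from that of wild-type in the same direction in *Cry2* knockouts and in *Clk* knockouts, and which did not meet a criterion for a 24-h rhythm in wild-type. The level is the FPKM, the fragments on a gene scaled by its length and by the mapped reads of the library. A gene counted as expressed with an FPKM of at least 3 in any wild-type library, which held for 10412 of 15130 genes. On the scale of log2(FPKM + 1) less the median of the library, each knockout library was paired with the wild-type library of the same time and replicate, leaving out ZT22 replicate 2, which gave 7 pairs per knockout. Members had the same sign in all 7 pairs of both knockouts, a mean difference of at least 0.5 in size in both, and a p-value of at least 0.005 in a regression on a 24-h cosine and sine over 15 wild-type libraries. On the level, 9 genes met this on the higher side (0.0864% of the expressed genes) and 30 on the lower side. Of the 38 members left after the criterion on rhythm, 8 were higher in both knockouts (0.0768%) and 30 were lower in both (0.288%). Without the library median taken off these counts were 1 and 51, with ZT22 replicate 2 included they were 11 and 17, and with a library left out they were 6 to 18 and 29 to 40, with 13 to 18 higher genes without wild-type ZT4 replicate 1, wild-type ZT16 replicate 2, wild-type ZT22 replicate 1 or *Clk* KO ZT16 replicate 2. These differences chose the genes. They are given below as a description and were not tested, and the tests below use other libraries or other contrasts.

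Wild-type brains were sampled at ZT1, 4, 7, 10, 13, 16, 19 and 22, in hours after lights on, under days with 15 h of light and nights of 9 h. Brains of *Cry2* KO and *Clk* KO monarchs were sampled at ZT4, 10, 16 and 22. All adults, wild-type included, had at least 7 such days after eclosion, and a library held polyA+ RNA of 3 pooled brains dissected free of eye photoreceptors. There were 2 libraries per genotype and time, 16 of wild-type and 8 of each knockout, and the labels give replicate 1 as male and replicate 2 as female, so that a difference between replicates includes that of sex. Each knockout is a single strain, and its other differences from wild-type cannot be told apart from the lack of the clock protein. Likewise, 16 libraries were mixed for each sequencing run, the libraries that shared a mix are not given in the sources used here, and mix and genotype cannot be told apart. In whole brains, fewer cells of a type and less RNA per cell cannot be told apart.

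In the monarch clock, CLK pairs with BMAL1 and activates genes that include *Cry2* and *Per*, and CRY2 represses this activation. Loss of CLK removes an activator and loss of CRY2 removes a repressor of the same targets. None of the 38 members is among the 431 rhythmic genes that the study lists with a name. As members had to miss a criterion on rhythm, few could be expected there. The reference gene table used here does not list the members either, so that no function is given for any of them. The 2 highest-ranked members of each direction are given by their identifier and the others by their position in assembly v3. Ranks follow the smaller of the 2 mean differences.

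Reads on genes, as estimated from the 95% interval deposited with each FPKM, numbered between 2848069 and 4456322 in a library. The estimate takes the interval as counting error alone, and the intervals do not hold the spread between libraries. In every library it was below the number of mapped reads that the study reports. The 2 also rank the libraries differently. *Clk* KO ZT4 replicate 1 had the most mapped reads in the study and an estimate of 3545156 here. The estimates are thus no measure of sequencing depth. No 2 libraries held the same values. The wild-type library of ZT22 replicate 2 stood apart. Its genes had an SD of 0.70 around the wild-type mean on the log2 scale, against 0.38 to 0.46 in the other 15 wild-type libraries and 0.43 to 0.51 in the knockouts, and the rule did not use it. In *Clk* KO ZT4 replicate 1 the library median was lower than the wild-type mean by 0.40 (difference of -0.40 on the log2 scale), and those of the other knockout libraries were between -0.16 and 0.06. The transcript of *Cry2* does not check the *Cry2* KO labels, since its FPKM was 22.1 to 23.9 there and 18.5 to 34.6 in wild-type. *Per*, a target of CLK, was at 39.2 to 46.6 FPKM in *Cry2* KO, 3.49 to 5.80 in *Clk* KO and 8.31 to 45.7 in wild-type over the day.

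The member that was highest above wild-type was DPOGS203409 (DPSCF300003:1318922-1329752). Its FPKM in the 16 wild-type libraries had a lowest value of 0.601, a median of 1.60 and a highest value of 3.11. In the 8 *Clk* KO libraries, the lowest, median and highest FPKM were 7.99, 11.6 and 13.7, and none overlapped wild-type. In *Cry2* KO, the values fell into those of replicate 1 and those of replicate 2. The 4 male libraries held 7.28 FPKM at ZT4, 7.97 at ZT10, 6.26 at ZT16 and 6.34 at ZT22, all above wild-type. The 4 female libraries held 1.88, 1.40, 1.96 and 3.22 FPKM in the same order, and 3 of these 4 lay within the wild-type range of FPKM. No such split was seen in wild-type at the same times, with 1.25 to 2.16 FPKM in males and 1.22 to 1.91 in females, or in *Clk* KO, with 7.99 to 13.1 and 9.91 to 13.7. The mean difference from wild-type over the 7 pairs was 1.10 ± 0.85 in *Cry2* KO and 2.40 ± 0.19 in *Clk* KO on the log2 scale (SD, n = 7). In a limma fit of genotype by replicate over the 16 libraries of wild-type and *Cry2* KO at the 4 shared times, chosen after this split was seen, the *Cry2* KO difference was lower in replicate 2 than in replicate 1 (-1.39, SE 0.27), which did not pass adjustment over 10412 genes (unadjusted p = 0.000289, adjusted p = 0.399). That fit held wild-type ZT22 replicate 2, and with a library left out in turn the adjusted p was 0.119 to 0.801 by limma. DPOGS203409 rested on an estimated 6.0 to 43.4 reads in a wild-type library and up to 167 in a knockout library.

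DPOGS206678 (DPSCF300048:1106141-1109694) was the second of the higher members. Its FPKM was 7.48 to 16.4 in wild-type with a median of 12.2, 16.8 to 23.2 in *Cry2* KO with a median of 17.9, and 8.94 to 26.0 in *Clk* KO with a median of 20.6. The *Cry2* KO libraries all lay above wild-type, and *Clk* KO overlapped it. The overlap came from *Clk* KO ZT4 replicate 1 at 8.94 FPKM and ZT10 replicate 1 at 15.5, and the first of these was below its wild-type partner at 10.7 as deposited and above it once the library medians were taken off. The mean difference was 0.69 ± 0.21 in *Cry2* KO and 0.67 ± 0.34 in *Clk* KO (SD, n = 7 pairs, log2 scale).

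Of the lower members, DPOGS209541 (DPSCF300092:320735-323241) had the largest difference. Its FPKM was 6.37 to 19.2 in wild-type, with a median of 11.7. In *Cry2* KO, the values were 0.395 and 0.712 at ZT4, 1.91 and 1.26 at ZT10, 1.39 and 1.60 at ZT16, and 0.490 and 1.15 at ZT22 (replicates 1 and 2). In *Clk* KO, they were 4.17 and 0.817, 3.29 and 4.59, 0.409 and 3.40, and 2.25 and 5.62. All 16 knockout libraries lay below all 16 of wild-type, and *Clk* KO was spread over a wider range than *Cry2* KO. The mean over the 8 *Cry2* KO libraries was 9.52% of the mean of 15 wild-type libraries and that of *Clk* KO was 26.2%. The mean differences were -2.50 ± 0.77 and -1.80 ± 0.81 on the log2 scale (SD, n = 7 pairs). The knockout values rested on an estimated 12.1 reads or fewer.

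DPOGS215283 (DPSCF300110:281340-364365) spans 83025 bp, the longest locus of the set. In wild-type its FPKM was 1.91 to 12.0 with a median of 4.11, a wide range. In *Cry2* KO it was 0.694 and 0.781 at ZT4, 0.420 and 0 at ZT10, 2.44 and 0.352 at ZT16, and 2.36 and 0 at ZT22 (replicates 1 and 2), where the gene was listed at 0 in 2 female libraries. In *Clk* KO it was 0.564 and 1.43, 1.99 and 0.916, 0.538 and 0.640, and 2.31 and 0.948. The knockouts overlapped the lowest wild-type libraries. The mean differences were -1.77 ± 0.99 in *Cry2* KO and -1.57 ± 1.01 in *Clk* KO (SD, n = 7 pairs, log2 scale).

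**Figure D1:**
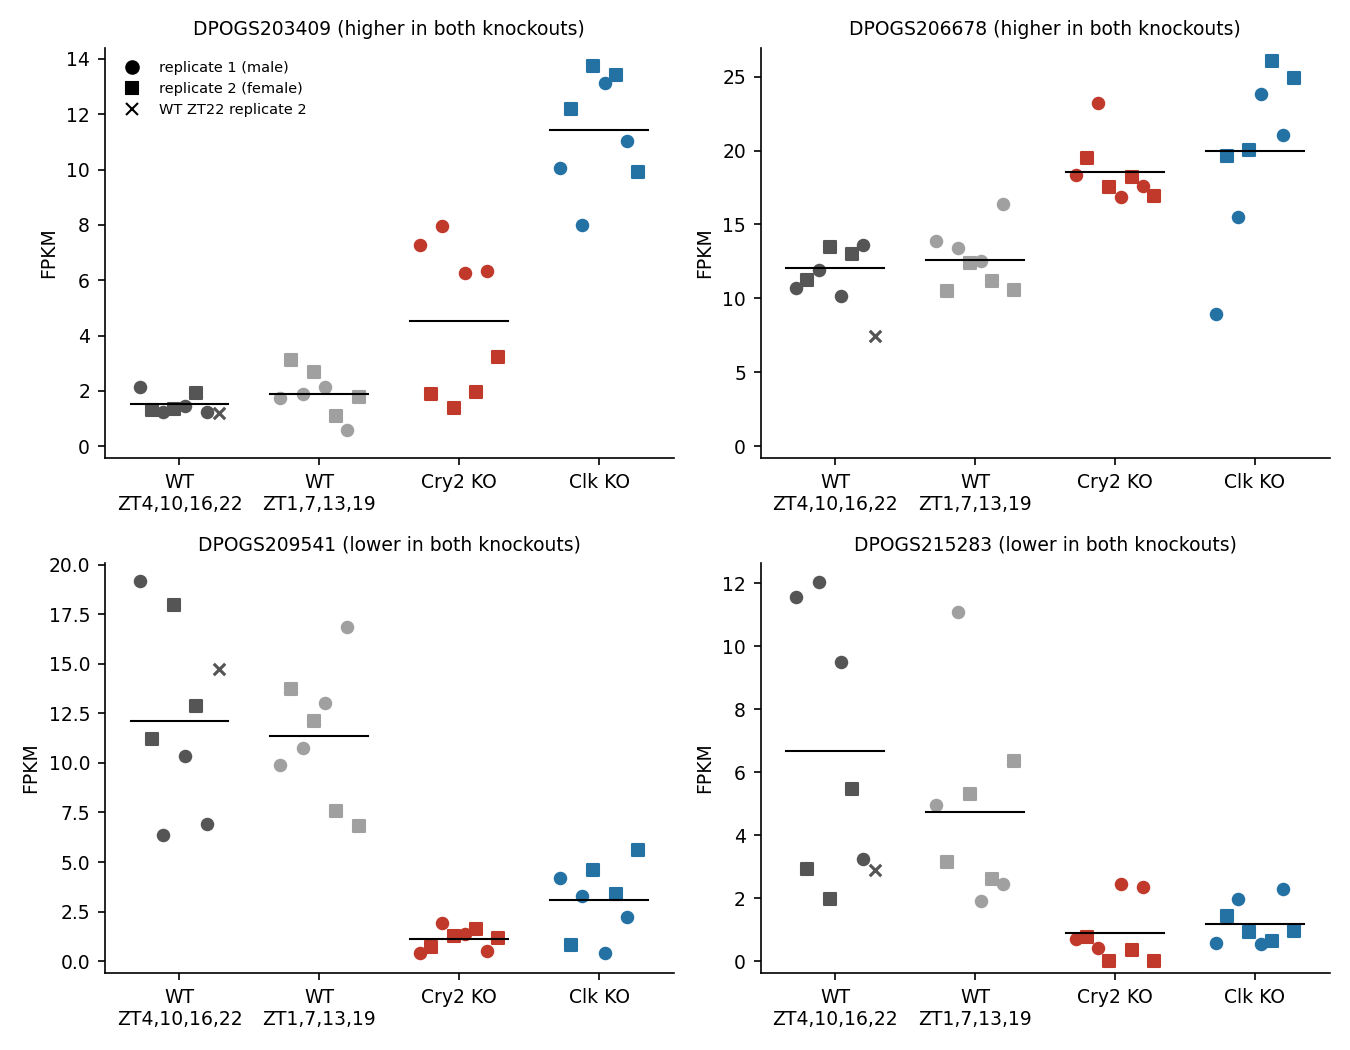
FPKM (vertical axis, linear) of the 2 highest-ranked members of each direction in all 32 libraries, by genotype, with wild-type split into the times shared with the knockouts and the other times. Circles are replicate 1 (male), squares replicate 2 (female), the cross is wild-type ZT22 replicate 2 and horizontal lines are means without it; for DPOGS203409 in *Cry2* KO the circles lie at 6.26 to 7.97 and the squares at 1.40 to 3.22.

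The other 6 higher members were spread over a wide range of levels. The gene at DPSCF300090:190976-195855 was the most abundant, with 71.3 to 166 FPKM in wild-type, 151 to 228 in *Cry2* KO and 115 to 223 in *Clk* KO, and the groups overlapped. The gene at DPSCF300041:1276324-1277443 had 9.79 to 18.04 FPKM in wild-type, 17.7 to 25.4 in *Cry2* KO and 21.5 to 47.4 in *Clk* KO. *Clk* KO lay above all wild-type libraries and *Cry2* KO overlapped only the highest of them. The gene at DPSCF300014:1438133-1439259 had a mean of 9.16 FPKM in 15 wild-type libraries, 12.0 in *Cry2* KO and 12.2 in *Clk* KO. The remaining 3, at DPSCF300002:124712-126461, DPSCF300131:409303-410700 and DPSCF300048:1179559-1181491, had wild-type means of 2.94, 2.91 and 4.44 FPKM and knockout means between 3.55 and 6.62. These are shifts of 1.21- to 1.90-fold at low levels, and the groups overlapped in each. Over the 8 higher members, the median of the mean differences was 0.64 in *Cry2* KO and 0.57 in *Clk* KO, and that over all expressed genes was 0.01 and 0.00.

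For the 30 lower members, these medians were -0.79 and -0.65. Of these, 6 had a mean difference of at least 1 in size in both knockouts, against 1 of the higher members. Apart from the 2 named above, they were the gene at DPSCF300186:253326-253885, with a mean of 14.7 FPKM in 15 wild-type libraries, 4.47 in *Cry2* KO and 5.55 in *Clk* KO, the gene at DPSCF300395:65988-66424 (61.5, 23.7 and 25.6 FPKM), the gene at DPSCF300014:2146449-2147971 (42.3, 19.3 and 18.8 FPKM) and the gene at DPSCF300216:17688-18216 (a wild-type mean of 233 FPKM, with 43.0% of it in *Cry2* KO and 43.5% in *Clk* KO). The first 3 of these 4 had no overlap of FPKM between the 15 wild-type libraries and the 16 knockout libraries. The last was the most abundant of the lower members, with 79.8 to 455 FPKM in wild-type, 60.2 to 134 in *Cry2* KO and 28.1 to 316 in *Clk* KO.

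Other lower members had smaller differences and a narrow spread. The gene at DPSCF300013:198826-199721 had 68.1 to 103 FPKM in wild-type with a median of 88.6, 32.2 to 43.5 in *Cry2* KO with a median of 37.5 and 33.0 to 49.5 in *Clk* KO with a median of 45.3. Its 16 knockout libraries lay below all of wild-type, at 42.2% and 49.8% of the wild-type mean. The gene at DPSCF300197:312109-326682 had 24.5 to 27.5 FPKM in wild-type, 15.5 to 19.8 in *Cry2* KO and 12.6 to 19.7 in *Clk* KO, and the gene at DPSCF300048:1956732-1962240 had 22.3 to 28.05, 12.98 to 15.9 and 13.5 to 17.8. In both, a gap lay between all wild-type and all knockout libraries, although the mean differences of the latter, -0.62 ± 0.09 and -0.51 ± 0.10 (SD, n = 7 pairs), were close to the limit of the rule.

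Across the lower members, the knockout mean was between 9.52% and 69.3% of wild-type in *Cry2* KO and between 20.7% and 72.2% in *Clk* KO. *Cry2* KO had the larger mean difference in 21 of the 30 lower and 5 of the 8 higher members. Since both knockouts were compared with the same wild-type libraries, the 2 differences of a gene are not independent. For comparison, 101 genes were higher (0.97%) and 104 lower (0.999%) in all pairs with a mean of at least 0.5 in *Cry2* KO, and 71 (0.682%) and 81 (0.778%) in *Clk* KO. All 16 knockout libraries lay outside the values of all 16 wild-type libraries on the log2 scale for 0 of the 8 higher (0.0096% of all genes) and 10 of the 30 lower members (0.259%). Without wild-type ZT22 replicate 2 these were 0 of 8 (0.0288%) and 16 of 30 (0.403%). As the rule used most of these libraries, nothing is read from these counts.

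**Figure D2:**
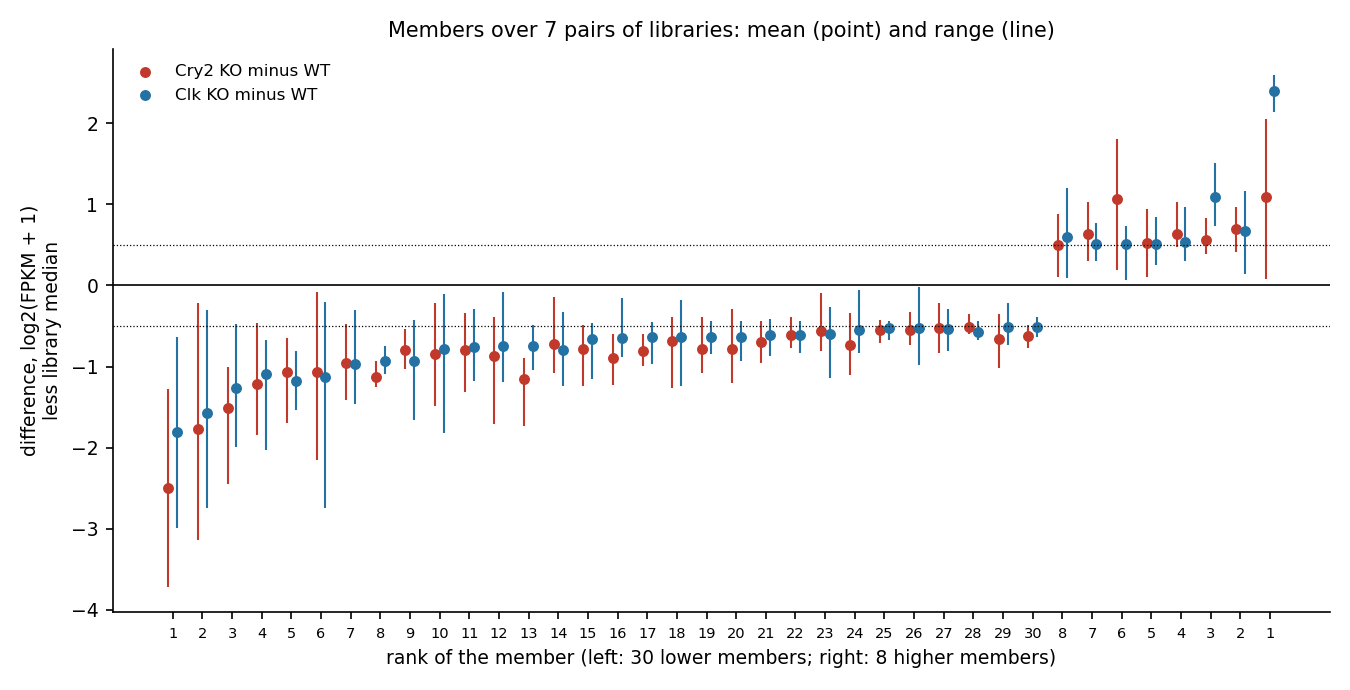
Difference of knockout and wild-type for each member, in log2(FPKM + 1) less the library median (vertical axis), as the mean (point) and the range (line) of 7 pairs, for *Cry2* KO in red and *Clk* KO in blue. The members are ordered by rank with the 30 lower ones on the left and the 8 higher ones on the right; dotted lines mark 0.5 and -0.5, the limits of the rule, and 14 of 38 members lie between 0.5 and 0.6 in size in at least 1 knockout.

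Some members lay close to these limits. The smallest mean in the higher members was 0.50, and of the genes outside the set, 6 had all pairs higher and a smaller mean of 0.4 to 0.5, the nearest at 0.47. Of the lower members the smallest was -0.51, and 17 genes lay just outside, the nearest at -0.50. The lowest harmonic p-value of a member was 0.022. A single gene met the criteria on the level and failed that on rhythm, with a harmonic p of 7.73e-07. It is DPOGS207942, paired by the study with the name *CG10660*, at DPSCF300090:297721-304067. Its mean differences were 1.12 in *Cry2* KO and 0.999 in *Clk* KO.

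To ask whether the differences were present in libraries that had not chosen the genes, the knockout libraries of ZT22 replicate 2, 1 of *Cry2* KO and 1 of *Clk* KO, were compared with the 8 wild-type libraries of ZT1, 7, 13 and 19. None of these 10 libraries was in a pair of the rule. The 8 of wild-type had entered only the FPKM filter and the 24-h regression. All 38 members differed in the direction of the rule. Members of the lower group had a median of -0.65 on the log2 scale and those of the higher group one of 0.54, against 0.00 over all expressed genes, of which 48.8% were positive and 51.2% negative. By limma with Benjamini-Hochberg adjustment over 10412 genes, 11 of the 30 lower members were lower at an adjusted p of 0.05 or less (0.279% of all genes were called lower), and 0 of the 8 higher members were higher (0.048%), where 0.327% of all genes were called in either direction. At an unadjusted p under 0.05 were 32 of the 38 members and 11.4% of all genes. The count was 6 with the replicate number as a block, 7 without the library median taken off, and 5 to 8 where a library was left out in turn, with 5 without *Cry2* KO ZT22 replicate 2 and 6 without *Clk* KO ZT22 replicate 2. The 2 knockout libraries formed 1 group in this fit, so that a call is on their mean and not on each knockout. Both knockout libraries were of ZT22, a time not among those of the 8 wild-type libraries, which cannot be told apart from genotype. Both were also of replicate 2, that is female, while the wild-type libraries were of both sexes. Only the fit with the replicate number as a block takes this into account.

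The lowest p-value was that of the gene at DPSCF300030:135284-139316, which fell by 0.78 on the log2 scale (SE 0.052, adjusted p = 0.000336 by limma). Its FPKM was 49.1 and 47.4 at ZT1, 49.5 and 48.3 at ZT7, 47.7 and 47.7 at ZT13, and 49.8 and 51.7 at ZT19 in wild-type (replicates 1 and 2), 27.4 in the *Cry2* KO and 28.9 in the *Clk* KO library. The 2 knockout values lay far below the narrow range of wild-type. This call was kept where any of the 10 libraries was left out, with adjusted p-values of 0.000583 to 0.0036. In the 14 knockout libraries of the pairs, the gene had a mean difference of -0.55 ± 0.09 in *Cry2* KO and -0.52 ± 0.09 in *Clk* KO (SD, n = 7), close to the limit of the rule.

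Of the other 10 members called, the estimates were from -1.60 at DPSCF300556:10582-19351 to -0.51 at DPSCF300197:312109-326682. Those at DPSCF300395:65988-66424 (-1.48, SE 0.13, adjusted p = 0.00168 by limma), DPSCF300048:1956732-1962240 (-0.59, SE 0.06, adjusted p = 0.00541) and DPSCF300013:198826-199721 (-1.04, SE 0.11, adjusted p = 0.0055) were among them. The 4 highest-ranked members were not called, with estimates of 1.29 (SE 0.37, adjusted p = 0.238) for DPOGS203409, 0.67 (SE 0.17, adjusted p = 0.171) for DPOGS206678, -1.66 (SE 0.39, adjusted p = 0.133) for DPOGS209541 and -1.89 (SE 0.48, adjusted p = 0.174) for DPOGS215283. Both held-out knockout libraries lay outside the 8 of wild-type in 5 of the 8 higher members (4.09% of all genes were so placed on the higher side) and in 21 of the 30 lower members (5.13% on the lower side).

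**Figure D3:**
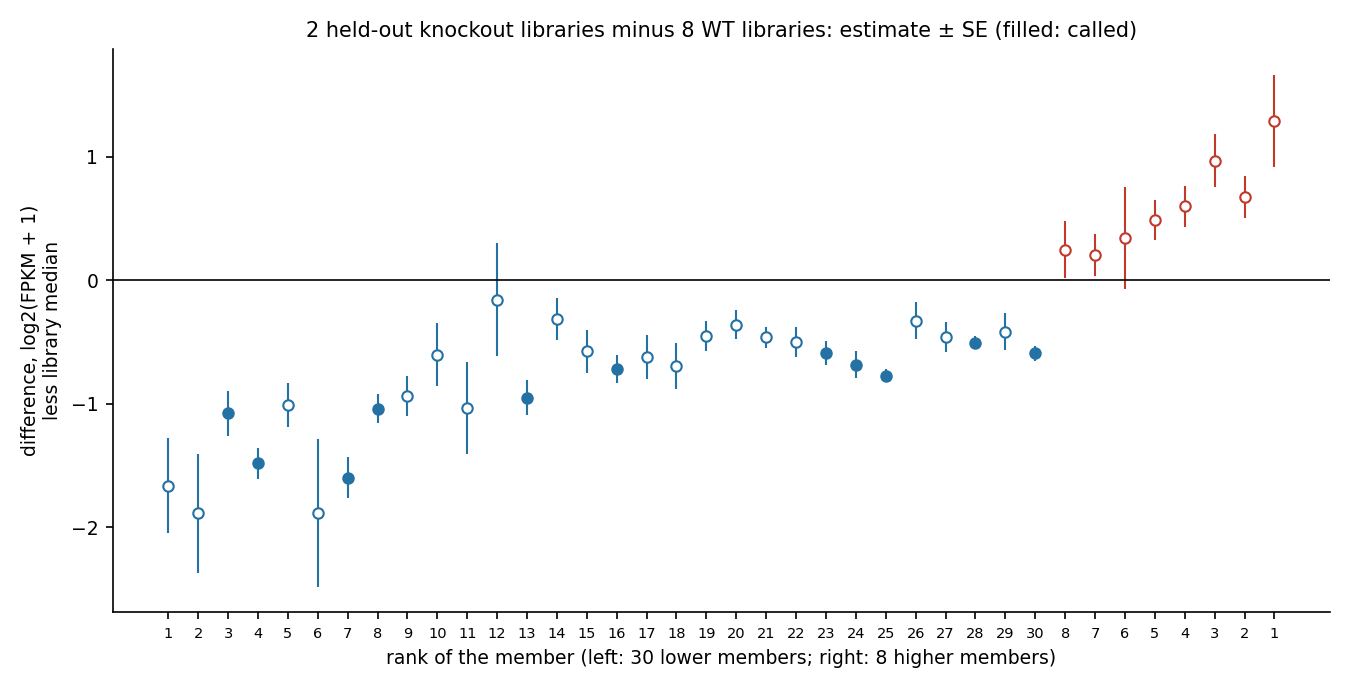
Estimated difference between the 2 held-out knockout libraries and the 8 wild-type libraries of ZT1, 7, 13 and 19 for each member, in log2(FPKM + 1) less the library median, with its SE, in the order of rank as for the pairs. Filled points are the 11 members called by limma at an adjusted p of 0.05 or less; all 38 points lie on the side of 0 that the rule gave them.

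When the 2 held-out knockout libraries were taken one at a time against the mean of the same 8 wild-type libraries, 7 of 8 higher and 29 of 30 lower members kept the direction in each (of all genes, 50.3% were higher and 49.7% lower in *Cry2* KO, and 49.2% and 50.8% in *Clk* KO). The exceptions in *Cry2* KO were the higher member at DPSCF300048:1179559-1181491 (-0.16) and the lower member at DPSCF300001:165490-168103 (0.65), which had 13.5 FPKM in that library and 3.03 to 6.10 in the other 7 of *Cry2* KO. In *Clk* KO they were the higher member at DPSCF300002:124712-126461 (-0.03) and the lower member at DPSCF300190:269994-270688 (0.05). Against wild-type ZT22 replicate 2, the library of the same time and replicate that stood apart, all 8 higher members were above it in both knockouts, as were 44.8% of all genes in *Cry2* KO and 44.1% in *Clk* KO. Of the 30 lower members, 23 were below it in *Cry2* KO and 19 in *Clk* KO, as were 55.2% and 55.9% of all genes, and the 19 are a share near that of all genes. That library held the lowest wild-type FPKM, as deposited, for 17 of the 30 lower members and 4 of the 8 higher ones, and for 31.8% of all genes.

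Taken over all members, the medians of the knockout libraries did not overlap those of wild-type, in libraries most of which the rule had used. The median over the 30 lower members, relative to the mean of 15 wild-type libraries, was -0.08 to 0.08 in these 15, -0.42 in ZT22 replicate 2, -0.85 to -0.65 in *Cry2* KO and -0.78 to -0.55 in *Clk* KO. For the 8 higher members it was -0.20 to 0.28, -0.37, 0.48 to 0.74 and 0.43 to 0.74. With the 8 wild-type libraries outside the pairs as reference, the median difference of the lower members was -0.71 in *Cry2* KO and -0.67 in *Clk* KO, and 28 and 26 of 30 were at least 0.5 lower (3.36% and 2.33% of all genes). For the higher members it was 0.61 and 0.48, and 6 and 4 of 8 were at least 0.5 higher (2.69% and 3.03% of all genes). The knockout values here are those that chose the genes, and these counts are a description alone. The wild-type libraries outside the pairs were themselves above those in the pairs by a median of 0.15 for the higher members and at -0.04 for the lower ones.

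**Figure D4:**
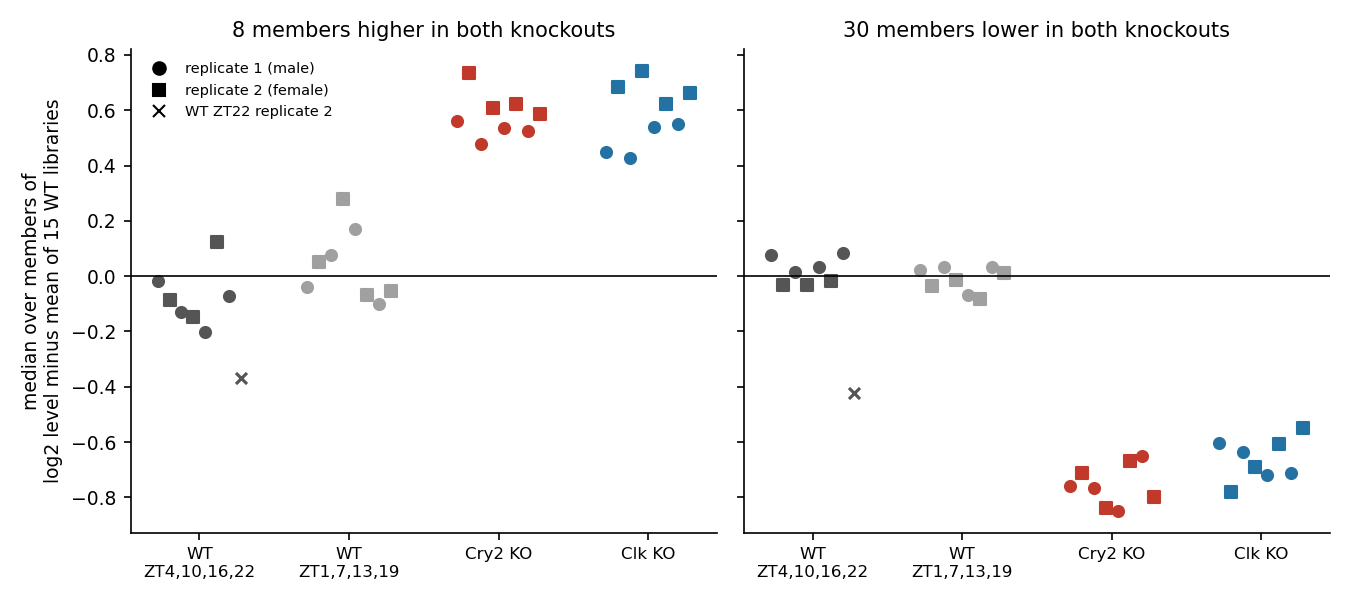
Median over the 8 higher members (left) and the 30 lower members (right) in each of the 32 libraries, relative to the mean of 15 wild-type libraries (vertical axis, log2 scale). Circles are replicate 1, squares replicate 2 and the cross is wild-type ZT22 replicate 2; the lower members are at -0.08 to 0.08 in the 15 wild-type libraries and at -0.85 to -0.55 in the knockouts.

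The knockouts were then compared with each other, a contrast that the rule had not used, over 16 libraries with time as a factor. Of the 38 members, 5 differed between *Clk* KO and *Cry2* KO by limma at an adjusted p of 0.05 or less, where 8.4% of all genes did, with 3.88% higher in *Clk* KO and 4.52% lower there. The count was 3 without the library median taken off. The lowest p-value was that of the lower member at DPSCF300229:66329-67422, which was higher in *Clk* KO by 0.44 (SE 0.08, adjusted p = 0.00464). In *Cry2* KO its FPKM had a lowest value of 53.8, a median of 69.2 and a highest value of 75.6, and in *Clk* KO these were 81.8, 89.4 and 108. The 2 knockouts did not overlap, and both lay below the 15 wild-type libraries at 134 to 194 FPKM. In the other direction, the higher member at DPSCF300002:124712-126461 was lower in *Clk* KO by a difference of -0.58 (SE 0.12, adjusted p = 0.00956), which missed the threshold without the library median taken off (adjusted p = 0.0596). Its lowest, median and highest FPKM were 3.91, 5.54 and 6.96 in *Cry2* KO and 2.03, 3.42 and 5.04 in *Clk* KO, and these overlapped.

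The largest difference was that of DPOGS203409, higher in *Clk* KO by 1.30 (SE 0.29, adjusted p = 0.0163 by limma), where the spread of *Cry2* KO is that between its 2 replicates. The remaining members called were those at DPSCF300041:1276324-1277443 (0.54, SE 0.12, adjusted p = 0.0177) and DPSCF300013:198826-199721 (0.20, SE 0.053, adjusted p = 0.034), both higher in *Clk* KO. For DPOGS209541, the estimate was 0.80 (SE 0.31, adjusted p = 0.136), and it was called only without *Clk* KO ZT16 replicate 1 (1.03, adjusted p = 0.0265). Over the 30 lower members, 22 had a positive estimate, as did 47.8% of all genes. For a lower member this is a level in *Clk* KO nearer to wild-type. The median was 0.10 over the lower members against -0.01 over all genes. The rule had used most of these knockout libraries, and these signs are a description alone. Over the 8 higher members 4 were positive, with a median of 0.01. For the other 33 members the difference missed the threshold, which does not show that the knockouts were alike.

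No member was called between replicate 2 and replicate 1 over all 32 libraries in a fit that held genotype and time (by limma, 3.91% of all genes were called, 1.67% higher and 2.24% lower in replicate 2), with 9 of the 38 at an unadjusted p under 0.05 and 16.2% of all genes. The lowest p-value was at DPSCF300041:1276324-1277443, which was higher in replicate 2 by 0.26 (SE 0.073, adjusted p = 0.0551). Of the lower members, 25 of 30 had a negative estimate, with a median of -0.06, and of all genes 51.6% did. The fit held wild-type ZT22 replicate 2, where the median over the lower members was -0.42 relative to 15 wild-type libraries. The part of that library in these estimates was not tested. That library was also in the genotype-by-replicate fits. These called 0 members and 0 of all genes (0.0%) in *Cry2* KO and in *Clk* KO. At an unadjusted p under 0.05 were 4 and 5 of the 38 members (7.25% and 6.12% of all genes). Of the 38 members, 1 lies on the scaffolds DPSCF300001 or DPSCF300012. The share of all expressed genes on these scaffolds is not given here, and nothing is read from this count.

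Likewise, no member was called over time within the 8 libraries of *Cry2* KO (0.0096% of all genes by limma) or of *Clk* KO (0.0192%), with 1 of the 38 members in each at an unadjusted p under 0.05 (5.25% and 4.62% of all genes). In both it was the lower member at DPSCF300395:65988-66424. The range of its time means was 0.61 in *Cry2* KO (adjusted p = 0.916 by limma) and 0.76 in *Clk* KO (adjusted p = 0.999). The median of this range over the lower members was 0.24 in *Cry2* KO and 0.35 in *Clk* KO, and over all genes it was 0.22 and 0.24. In wild-type, the fitted peak-to-trough range of members had a median of 0.20 and that of all expressed genes one of 0.17.

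The median span of the members' loci was 1581.5 bp (upper quartile 4457 bp), against 3333 bp over all expressed genes, and 22 of 38 were under 2000 bp (57.9%), as were 35.05% of all. Under 2000 bp were 5 of the 8 higher and 17 of the 30 lower members. The members rested on a median of 58.7 reads per library, against 109 for all expressed genes, and had a median wild-type mean of 13.7 FPKM against 17.4. In 29 of 38 members the FPKM was at least 3 in every wild-type library, and 1 member was under 3 FPKM in every knockout library. The spread over the 8 wild-type libraries outside the pairs, as the SD on the log2 scale, was 0.25 in the median of the higher members, 0.18 in that of the lower members and 0.16 over all. A low count of reads and a short locus both widen the error of FPKM, and their part in the choice of these genes was not tested.

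The 38 members lay on 34 of 746 scaffolds with an expressed gene, and no 2 of them were neighbours in gene order. Of the 3 scaffolds with more than 1 member, DPSCF300048 held 3. There, the higher members at 1106141-1109694 (DPOGS206678) and 1179559-1181491 were 69865 bp apart with 8 genes between them, and the lower member at 1956732-1962240 was 775241 bp further on. The 2 lower members on DPSCF300030, at 135284-139316 and 259496-263367, were 120180 bp apart with 17 genes between. On DPSCF300014, a higher and a lower member were 707190 bp apart.

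Genes with a known role were looked at by the same criteria on the level, which 39 of 10412 genes met in 1 of the 2 directions (0.375%). The lists were taken from the 431 genes that the study lists with a name as rhythmic. They leave out genes of these roles that were not rhythmic there, such as *Clk*, *Bmal1*, *Cry1* and *Pdp1*. Nothing is read from them on these roles in general. None of 5 clock genes met the level criteria. Of these, 2 were higher in all pairs with a mean of at least 0.5 in *Cry2* KO and 3 were lower in *Clk* KO, in different directions. None of 16 genes of trehalose, glucose and glycogen metabolism, 9 genes of transmitter synthesis, transport or reception, or 10 heat shock genes met them, although 4 of the 10 heat shock genes, chaperones and their regulators, were higher in *Cry2* KO. None of 8 genes of eye and pigment met them in both knockouts or in either alone. Their median difference was -0.15 in *Cry2* KO and -0.17 in *Clk* KO. The study kept only expressed genes for its rhythmic list, so that all 8 counted as expressed by choice. The list thus does not check the dissection. Of the 431 genes with a name in the study, which were chosen there as rhythmic on these wild-type libraries, 1 met the level criteria.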

How the data were processed

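Brain RNA of wild-type, *Cry2* KO and *Clk* KO monarchs was sequenced in 32 libraries (directional kit, single-end reads). Per the labels and methods, the authors called bases with CASAVA 1.8.2, mapped reads with TopHat2 to assembly v3 with a single alignment kept per read, and deposited FPKM from Cufflinks with a 95% interval; versions of the latter tools, and whether strand was used in counting, are not given in the sources used here. Reads of near-identical copies or overlapping genes may thus be shared between them. Groups follow the labels.

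The files hold no counts, and no count model was used. FPKM were taken as log2(FPKM + 1) less the library median over expressed genes. On this scale low genes show smaller changes. Reads were estimated from the interval width. Tests were made with limma 3.58.1 in R 4.3.3 (intensity trend, Benjamini-Hochberg over 10412 genes, adjusted p of 0.05), and descriptions with scipy 1.17.1, pandas 2.3.3 and numpy 2.4.6 in Python 3.11.15. The fits were tested on simulated data. Figures were drawn with matplotlib 3.10.9. Replicates differ in sex in the labels and are pools of 3 brains. The p-values measure the spread between these pools, which includes that between the sexes where the fit holds no replicate term. In the held-out fit it also includes the spread between times and between the 2 knockouts.

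The members and gene lists were chosen with earlier results of these data known. Genes were named by a rule: members with a name in the study or the reference table (0), the 2 largest in each direction by ID, neighbouring members (0) and the lowest p-value per test and direction if called, by position. Members outside this rule that are given by position were chosen after their values were seen. The 2 tests of genotype by replicate were added after the data were seen. Alternatives were a pseudocount of 0.1, no median taken off, median-of-ratios scaling, other filters, 8 pairs, a harmonic p of at least 0.05, the replicate block and each library left out.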

Additional observations from a re-analysis of the deposited data

Results flagged for a closer look

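In 76 groups of 8 knockout libraries (38 members in each knockout), 3 held a library whose gap to the nearest other, as a share of the whole range on the log2 scale, was above Dixon's 95% critical value. Chance flags about 1 in 20 groups. These were the lower member at DPSCF300001:165490-168103 in *Cry2* KO ZT22 replicate 2 (gap ratio 0.567, 13.5 FPKM against 3.03 to 6.10 in the other 7), the lower member at DPSCF300073:529441-530965 in *Clk* KO ZT4 replicate 1 (0.571, 1.10 FPKM against 2.40 to 3.53) and the lower member at DPSCF300170:554667-555493 in *Cry2* KO ZT16 replicate 2 (0.531, 18.3 FPKM against 11.6 to 14.8).

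The effects of the 2 knockouts differed in a direct test (limma, 16 libraries, adjusted p of 0.05 or less) for 5 of the 38 members, where 8.4% of all genes were called. *Clk* KO was higher at DPSCF300229:66329-67422 by 0.44 (adjusted p = 0.00464), for DPOGS203409 by 1.30 (adjusted p = 0.0163), at DPSCF300013:198826-199721 by 0.20 (adjusted p = 0.034) and at DPSCF300041:1276324-1277443 by 0.54 (adjusted p = 0.0177), and lower at DPSCF300002:124712-126461 (-0.58, adjusted p = 0.00956). DPOGS203409 is the member whose *Cry2* KO libraries split by replicate.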

How the results depend on the processing

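Without the library median taken off, the rule gave 51 lower genes, the 30 members among them, and 1 higher gene, which was a member. The median of all genes then moved by -0.08 in both knockouts, all 8 higher members still had positive means in both, and 3 of the 8 were higher in all 14 pairs. Under median-of-ratios scaling 30 lower and 6 higher genes met the rule (30 and 5 of them members). With ZT22 replicate 2 in the pairs and the regression, 17 lower genes met it, 15 of them members, and 11 higher genes, 6 of them members. With an FPKM of at least 10, 5 higher genes met it, 4 of them members. Leaving out a library in turn gave 6 to 18 higher and 29 to 40 lower genes, and 26 of 38 members met the rule in all 32 fits. The higher count was 18 without wild-type ZT4 replicate 1, 17 without wild-type ZT16 replicate 2, 13 without wild-type ZT22 replicate 1 and 15 without *Clk* KO ZT16 replicate 2. A pair fewer makes the rule easier to meet.

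On the held-out libraries, the 11 calls became 7 without the library median taken off, 6 with the replicate block, and 5 to 8 with a library left out, where only the fit without wild-type ZT13 replicate 1 kept the count within 1.5 times. Where a knockout library was left out, the lone one was taken to vary like the wild-type. Between the knockouts, 5 calls became 3 without the median taken off, 5 with the replicate block, and 4 to 6 with a library left out. Between replicates, 0 became 1 without the median taken off and 1 under median-of-ratios scaling, and 0 to 2 with a library left out (2 without either wild-type library of ZT22, 1 without either library of wild-type ZT1, wild-type ZT10 or *Clk* KO ZT10). The calls over time (0 with the replicate block too) and of genotype by replicate remained 0 under each alternative run. Replicate differences of 2 groups had a mean correlation of 0.03 over 120 pairs of groups (-0.12 to 0.17). This does not settle whether the numbers pair the libraries. They group them by sex, and 3.91% of all genes were called between replicates by limma. The cause of the changes in these counts was not tested. No replicate block was possible for the contrast of replicates itself or of genotype by replicate, which hold the replicate.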
